A study of Mus musculus with 36 samples.

Results

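The genes described here are the subunits, regulators and inducible targets of the transcription factor NF-kB in mouse bone marrow derived dendritic cells (DCs). A list of 36 genes was used, in 5 roles: 4 subunits, 7 kinases, 8 receptors and adaptors (called adaptors below), 7 inhibitors and 10 targets. Members were found by their symbol in the annotation of the array platform, and a gene with several transcript clusters (the groups of probes summarized to 1 value) was represented by the cluster with the highest mean over the 36 arrays. By that rule 33 of the 36 listed genes were measured, out of 19938 gene symbols with a cluster of their own. Chuk, Ripk2 and Traf3 had no cluster annotated to their symbol alone and were not analysed here.

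The cells came from bone marrow of Balb/c mice aged 10 to 12 weeks, grown with 100 ng/ml of GM-CSF and collected on day 6. Treated cultures received soluble human thrombomodulin (sTM) at 200 nM from day 4. Cultures were either left unsorted or separated with an antibody to thrombomodulin (TM) and magnetic beads into TM+ and TM- DCs, each stated to be more than 93% pure. Gene expression was measured on 36 whole-transcript Affymetrix arrays. The sorted groups held 4 arrays of untreated TM+ DCs, 4 of untreated TM- DCs, 6 of sTM-treated TM+ DCs and 6 of sTM-treated TM- DCs. Untreated sorted DCs came from experiments 3 and 4, and sTM-treated sorted DCs from experiments 2, 3 and 4, with 2 arrays of each kind per experiment. Unsorted DCs were measured on 8 untreated and 8 sTM-treated arrays, 4 of each in experiment 1 and 2 of each in experiments 2 and 3. The labels call arrays of one group and experiment biological replicates, but separate mice or cultures are not given in the sources used here, so p-values measure the spread between these arrays.

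NF-kB proteins are held in the cytoplasm by inhibitors of the IkappaB family until signals from cytokine or pattern recognition receptors pass through adaptors and the IKK kinases, which mark the inhibitors for destruction and free the subunits to enter the nucleus. Many inhibitors are themselves NF-kB targets, so that activation also makes the transcripts that end it. In DCs the pathway is known for driving maturation, the state in which these cells raise costimulatory molecules and cytokines.

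The promoters of the members were searched for the kappaB consensus, the binding motif of NF-kB, on both strands and with overlapping matches kept. The windows are those of RefSeq on GRCm38.p6, from 250 bases before to 50 bases after each start, and 27 of the 33 measured members had at least 1. A match was present for 12 of these 27 (44.4%) and for 1388 of 27025 genes with a window (5.14%). By role, a match was found for 5 of 6 inhibitors, 2 of 3 subunits, 3 of 9 targets, 2 of 6 adaptors and 0 of 3 kinases. Members with a match were Bcl10, Bcl3, Ier3, Irf1, Nfkb2, Nfkbia, Nfkbie, Rel, Sod2, Tank, Tnfaip3 and Tnip1. A match is a description of these letters and no evidence of binding. The members were listed as NF-kB subunits, regulators and targets, so setting their share beside that of all genes is no test. The windows below are shown as examples: subunits and inhibitors that were called lower in TM+ DCs and have a match, in capitals, and 2 targets with large differences and no match in the window. Bcl3 and Nfkbie had a match too and are not shown, and the windows of Cflar and Tnfrsf1b held none. They lie at chr19:46304487-46304786 on the forward strand (Nfkb2), chr11:23770920-23771219 on the reverse strand (Rel), chr12:55492598-55492897 on the reverse strand (Nfkbia), chr10:19015361-19015660 on the reverse strand (Tnfaip3), chr11:54962891-54963190 on the reverse strand (Tnip1), chr2:34961723-34962022 on the reverse strand (Traf1) and chr10:80929841-80930140 on the forward strand (Gadd45b). Each is written 5′ to 3′ along the gene.
Nfkb2: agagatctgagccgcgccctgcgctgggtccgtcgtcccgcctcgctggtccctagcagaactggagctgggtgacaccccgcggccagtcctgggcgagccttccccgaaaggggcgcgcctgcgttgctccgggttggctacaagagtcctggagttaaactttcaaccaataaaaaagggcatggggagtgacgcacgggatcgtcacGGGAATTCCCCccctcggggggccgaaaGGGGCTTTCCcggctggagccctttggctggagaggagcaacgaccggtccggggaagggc
Rel: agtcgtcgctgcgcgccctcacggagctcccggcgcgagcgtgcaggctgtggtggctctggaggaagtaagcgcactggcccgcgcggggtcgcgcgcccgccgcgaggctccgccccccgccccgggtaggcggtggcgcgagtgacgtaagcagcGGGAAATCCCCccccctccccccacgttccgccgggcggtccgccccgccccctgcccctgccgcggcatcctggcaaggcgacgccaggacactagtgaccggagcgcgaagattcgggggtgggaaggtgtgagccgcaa
Nfkbia: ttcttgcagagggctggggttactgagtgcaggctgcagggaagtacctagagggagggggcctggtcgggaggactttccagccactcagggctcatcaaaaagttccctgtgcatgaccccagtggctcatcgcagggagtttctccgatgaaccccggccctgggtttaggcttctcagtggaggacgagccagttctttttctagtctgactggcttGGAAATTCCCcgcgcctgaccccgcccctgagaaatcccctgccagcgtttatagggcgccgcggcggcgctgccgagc
Tnfaip3: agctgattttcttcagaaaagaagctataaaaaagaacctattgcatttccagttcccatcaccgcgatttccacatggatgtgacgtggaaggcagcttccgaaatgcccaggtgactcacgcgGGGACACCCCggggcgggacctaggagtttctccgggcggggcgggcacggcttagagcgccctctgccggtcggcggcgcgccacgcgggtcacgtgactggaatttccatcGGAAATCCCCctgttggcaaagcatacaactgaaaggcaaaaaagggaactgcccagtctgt
Tnip1: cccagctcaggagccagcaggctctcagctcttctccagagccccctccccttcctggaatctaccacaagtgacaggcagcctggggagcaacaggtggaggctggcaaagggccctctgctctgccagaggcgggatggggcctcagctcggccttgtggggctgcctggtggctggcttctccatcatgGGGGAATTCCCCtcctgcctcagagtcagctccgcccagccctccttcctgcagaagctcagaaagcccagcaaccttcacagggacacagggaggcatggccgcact
Traf1: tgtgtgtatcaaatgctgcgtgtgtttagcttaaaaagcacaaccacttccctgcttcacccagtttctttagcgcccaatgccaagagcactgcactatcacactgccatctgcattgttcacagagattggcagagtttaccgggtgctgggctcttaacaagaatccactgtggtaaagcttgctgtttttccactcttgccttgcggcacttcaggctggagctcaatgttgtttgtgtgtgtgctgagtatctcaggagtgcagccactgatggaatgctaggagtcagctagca
Gadd45b: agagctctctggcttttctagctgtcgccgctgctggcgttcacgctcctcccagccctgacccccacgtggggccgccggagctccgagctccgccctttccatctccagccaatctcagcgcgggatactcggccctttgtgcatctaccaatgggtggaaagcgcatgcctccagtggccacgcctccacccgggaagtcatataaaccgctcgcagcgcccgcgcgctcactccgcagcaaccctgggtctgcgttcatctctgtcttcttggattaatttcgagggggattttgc
The match nearest to the start began 11 bases before it in Nfkb2, 29 in Nfkbia, 12 in Tnfaip3, 56 in Tnip1 and 91 in Rel. Nfkb2 had 3 windows and Tnfaip3 2, of which 1 each is shown. The promoters of Ikbkb, Malt1, Map3k8, Nfkbiz, Nos2 and Relb were not analysed here.

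Values are log2 intensities. CD11c (Itgax), a marker of DCs, lay between 11.72 and 12.35 on the 36 arrays and ranked at the 98.9th percentile of all genes by its mean. Among other DC markers, Cd74, Zbtb46 and Flt3 ranked at percentiles 99.3, 55 and 37.2. The neutrophil markers S100a8 and Ly6g ranked at percentiles 84 and 71.3. Thbd, the gene of the protein used for sorting, lay between 5.65 and 6.92, at the 32.9th percentile. It differed between TM+ and TM- DCs by 0.24 ± 0.12 (standard error, SE; adjusted p = 0.12), so its transcript was not called between the sorted fractions. At this low intensity the missing call does not show that the transcript was equal. Arrays of one group and experiment correlated at 0.968 to 0.997, and the lowest pair was that of sTM-treated TM- DCs in experiment 3. Other lists moved with the sort, and their counts are read against the shares of all genes called higher (18.6%) and lower (18.7%) in TM+ DCs. All 10 measured cell division genes were called higher in TM+ DCs (median 2.46, with a summed intensity of 4000 to 19715 in TM+ against 1172 to 4118 in TM- DCs). Of 13 neutrophil markers 10 were called higher (median 0.70, summed intensity 9292 to 24452 against 6615 to 10644), as were 4 of 10 eosinophil, mast cell and basophil markers (1970 to 5577 against 868 to 3049). Of 12 maturation markers 11 were called lower (median -1.35, 14947 to 43730 against 23974 to 60650). Monocyte and macrophage markers (6 of 9 higher, 1 lower) and DC markers (6 of 12 higher, 4 lower) moved both ways, 2 of 7 B cell markers were called lower, and 0 of 9 T and NK cell and 0 of 4 erythroid markers were called. The part of these lists in the results below was not tested, and in bulk RNA fewer cells of a type and less RNA per cell cannot be told apart.

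NF-kB transcripts were lower in TM+ than in TM- DCs across every role. Of the 33 members, 28 were called lower and 0 higher at an adjusted p under 0.05 (limma, Benjamini-Hochberg over 19938 genes), where 18.7% of all genes were called lower. The median difference, TM+ minus TM-, was -0.73 over the members on the log2 scale and -0.08 over all genes, and all 33 estimates lay below 0. Centring each array on its 75th percentile moved the median of all genes to -0.20 and that of the members to -0.84, and changed the calls over all genes from 3709 higher and 3729 lower to 2941 higher and 9040 lower, with 31 members called lower. The 5 members that missed the threshold were Bcl10, Tank, Ikbkb, Map3k14 and Irf1. Without experiment 4 the calls of Bcl3, Ier3, Ikbke, Ikbkg, Map3k8, Rela and Relb were lost. Without experiment 3 those of Birc2, Ikbke and Nfkbie were lost, and without experiment 2 that of Ikbkg. Of all genes, 4.94% were called lower without experiment 4, 24% without experiment 3 and 19.8% without experiment 2.

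**Figure D1:**
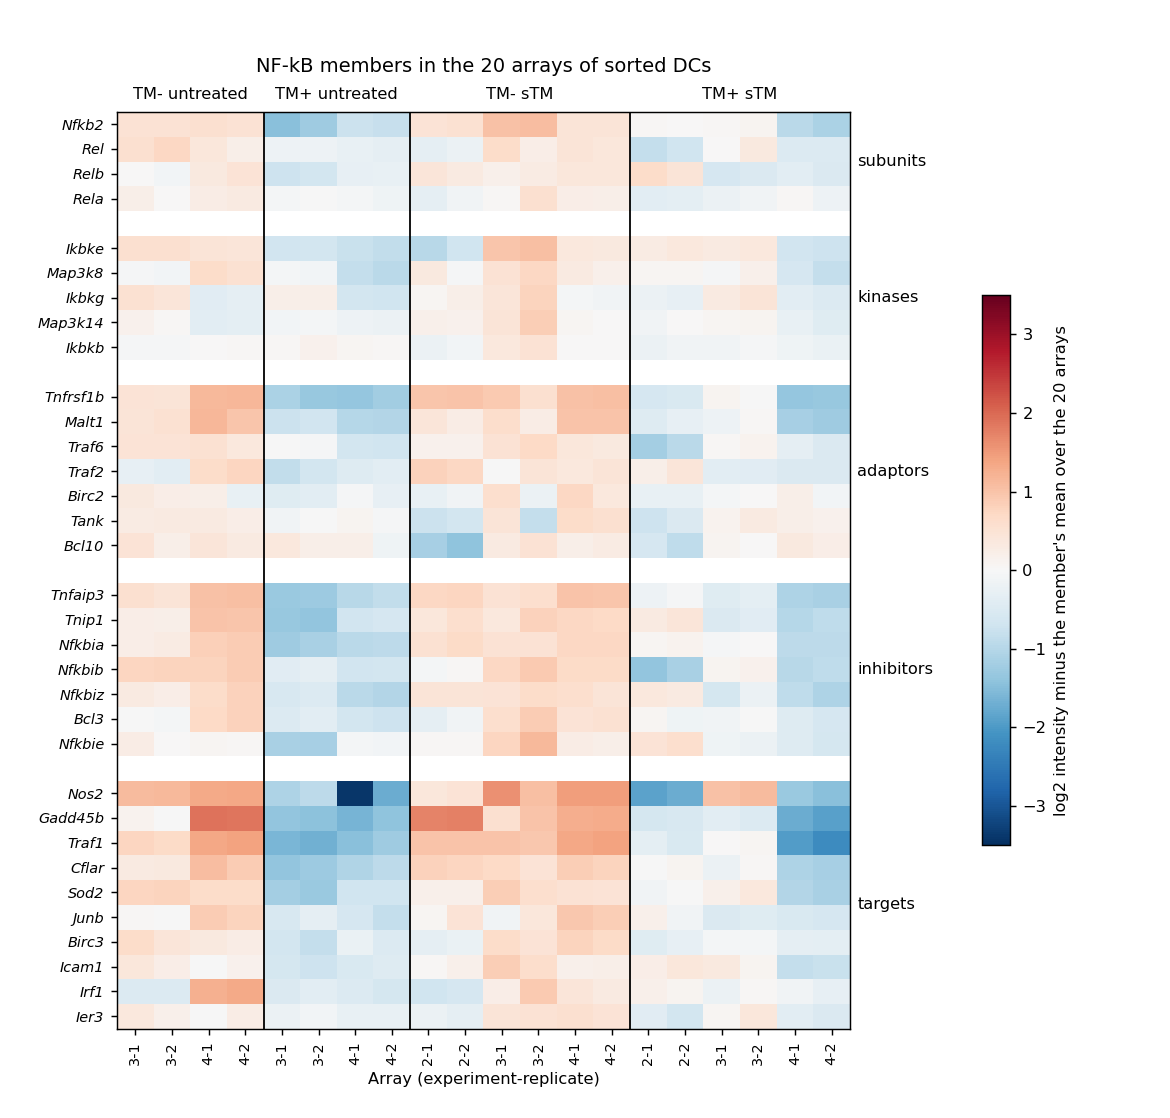
Heat map of the 33 measured members (rows, by role) on the 20 arrays of sorted DCs (columns, by group, labelled by experiment and replicate). Colour is the log2 intensity minus the member's mean over these arrays. Untreated TM+ columns are mostly blue and both TM- blocks mostly red, while among sTM-treated TM+ DCs the arrays of experiments 2 and 3 are paler than those of experiment 4.

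Differences were larger among inhibitors and targets than among subunits and kinases. Subunits and kinases together had a median of -0.57, with 7 of 9 called lower, and inhibitors and targets together a median of -1.21, with 16 of 17 called lower. By single role the medians were -0.31 for kinases, -0.60 for subunits, -0.71 for adaptors, -1.05 for targets and -1.25 for inhibitors. These values are descriptions, and no test compared the roles.

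**Figure D2:**
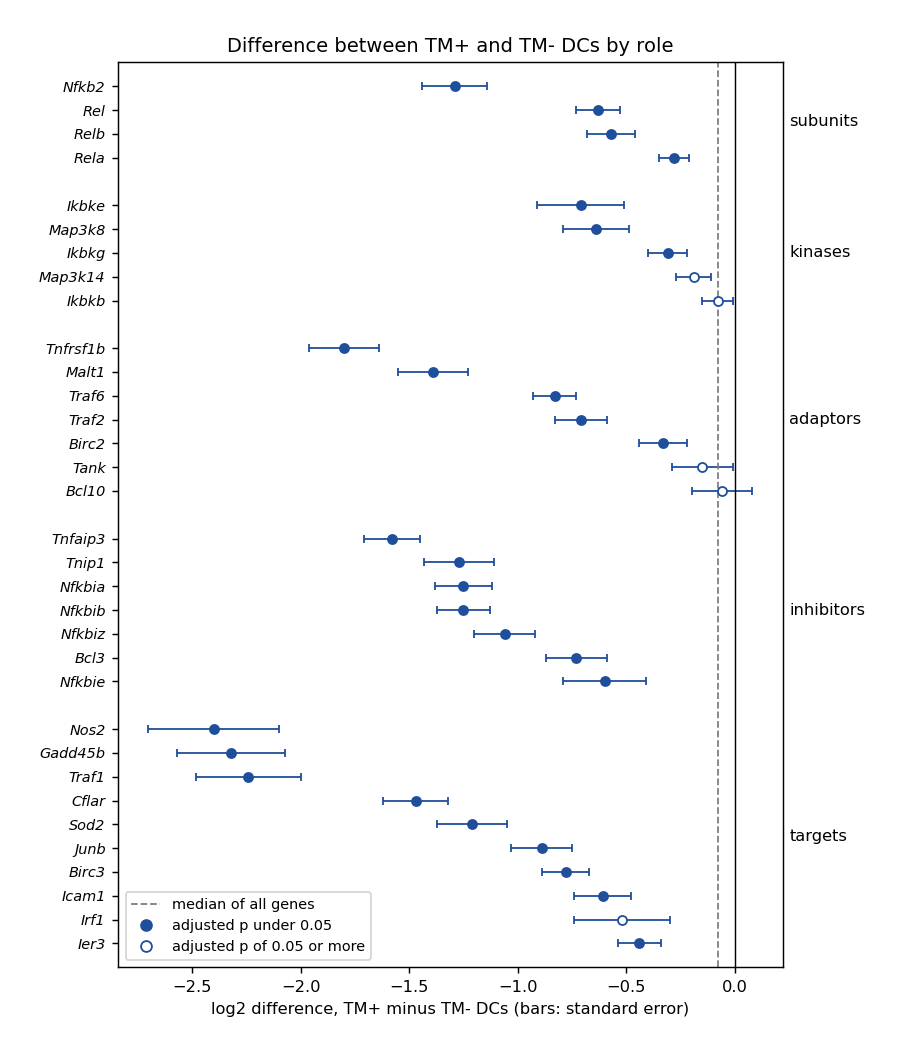
Difference between TM+ and TM- DCs for each member (log2, horizontal axis), grouped by role, with standard errors from the fit over 20 arrays. Filled points passed the threshold, open points did not, and the dashed line marks the median of all genes at -0.08. Every point lies left of 0, from Nos2 at -2.40 to Bcl10 at -0.06.

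All 4 subunits were called lower in TM+ DCs. Rela and Relb were not called when experiment 4 was left out, and Rela was not called in untreated cultures alone (adjusted p = 0.111). Nfkb2, which encodes the precursor subunit of the noncanonical pathway, stood at 8.87 and 9.08 in untreated TM+ DCs of experiment 3 and at 9.57 and 9.51 in those of experiment 4, against 10.84 to 10.90 in the 4 untreated TM- arrays. In sTM-treated cultures it had a lowest, median and highest value of 9.23, 10.35 and 10.43 in TM+ DCs and of 10.79, 10.83 and 11.40 in TM- DCs. The fractions did not overlap on any array, and Nfkb2 was 2.44-fold lower in TM+ DCs (-1.29 ± 0.15, adjusted p = 8e-07). Rel, the subunit c-Rel of lymphoid and myeloid cells, stood at 11.16, 11.17, 11.08 and 11.02 in untreated TM+ DCs and at 11.92, 12.06, 11.75 and 11.55 in untreated TM- DCs. In the treated groups its ranges overlapped, from 10.52 to 11.69 in TM+ and from 11.02 to 11.98 in TM- DCs, and its difference was -0.63 ± 0.10 (adjusted p = 2.96e-05). Relb, the noncanonical partner of the Nfkb2 product, was lower by a log2 difference of -0.57. Rela, the most widely expressed transactivating subunit, had the smallest difference of the subunits at -0.28, but its TM+ arrays lay below its TM- arrays within each of the 5 sets formed by one experiment and one treatment.

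Of the 5 measured kinases, Ikbke, Map3k8 and Ikbkg were called lower. Ikbke, an IKK-related kinase that itself responds to NF-kB, stood at 10.05, 10.08, 9.92 and 9.84 in untreated TM+ DCs and at 11.28, 11.26, 11.15 and 11.14 in untreated TM- DCs, with no overlap. In sTM-treated cultures its ranges overlapped almost entirely, from 9.98 to 11.09 (median 11.01) in TM+ DCs and from 9.73 to 11.75 (median 11.07) in TM- DCs. Its difference over both treatments was -0.71 ± 0.20 (adjusted p = 0.00705), and it was not called when either experiment 3 or experiment 4 was left out. Map3k8, a kinase that links the pathway to ERK signalling, stood at 9.31 and 9.30 in untreated TM+ DCs of experiment 3 and at 8.54 and 8.44 in those of experiment 4. Its untreated TM- values were 9.34 and 9.29 in experiment 3 and 10.03 and 9.91 in experiment 4, so the untreated fractions were level in experiment 3 and apart in experiment 4. After sTM it ran from 8.56 to 9.55 (median 9.39) in TM+ and from 9.35 to 10.12 (median 9.71) in TM- DCs. The difference over all arrays was -0.64 ± 0.15 (adjusted p = 0.00146), and it was not called without experiment 4. Ikbkg, the regulatory subunit of the IKK complex, differed by -0.31 ± 0.09 and was not called when experiment 2 or experiment 4 was left out. The catalytic kinase Ikbkb (-0.08 ± 0.07) and Map3k14, the upstream kinase of the noncanonical pathway (-0.19 ± 0.08, adjusted p = 0.0519), were not called.

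Among the adaptors, 5 of 7 were called lower. Tnfrsf1b, a receptor for TNF, stood at 10.67, 10.45, 10.41 and 10.54 in untreated TM+ DCs and at 12.24, 12.23, 12.89 and 12.94 in untreated TM- DCs. In sTM-treated cultures it ran from 10.41 to 11.85 (median 11.20) in TM+ DCs and from 12.32 to 12.82 (median 12.75) in TM- DCs. No TM+ array reached any TM- array, and the difference was 3.48-fold (-1.80 ± 0.16, adjusted p = 3.49e-08). Malt1, the protease of the complex that carries antigen and lectin receptor signals, likewise did not overlap. It ran from 10.33 to 10.69 in untreated TM+ and from 11.81 to 12.51 in untreated TM- DCs, and from 10.10 to 11.40 (median 10.99) against 11.61 to 12.36 (median 11.87) after sTM. Its difference was -1.39 ± 0.16 (adjusted p = 9.15e-07). The ubiquitin ligase Traf6 (-0.83), the adaptor Traf2 (-0.71) and the ligase Birc2 (-0.33) were also called lower, and a further cluster of Birc2 gave -0.56. Bcl10, the partner of Malt1, differed by -0.06 ± 0.14 and Tank, an adaptor of the IKK-related kinases, by -0.15 ± 0.14, neither of them called.

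All 7 members listed as inhibitors were called lower over both treatments. Nfkbie was not called within untreated cultures (adjusted p = 0.0803) or sTM-treated cultures (adjusted p = 0.144) alone. Tnfaip3, the ubiquitin-editing enzyme that shuts down receptor signalling, stood at 9.36, 9.38, 9.70 and 9.80 in untreated TM+ DCs and at 11.23, 11.11, 11.69 and 11.72 in untreated TM- DCs. After sTM it ran from 9.52 to 10.62 (median 10.28) in TM+ and from 11.17 to 11.66 (median 11.41) in TM- DCs. The groups did not overlap, and the difference was -1.58 ± 0.13 (adjusted p = 6.73e-09). Tnip1, which binds the Tnfaip3 product, stood at 8.05, 7.99, 8.72 and 8.80 in untreated TM+ DCs and at 9.63, 9.59, 10.38 and 10.36 in untreated TM- DCs. After sTM its ranges met, from 8.39 to 9.80 (median 8.94) in TM+ and from 9.76 to 10.20 (median 10.03) in TM- DCs, since the TM+ arrays of experiment 2 lay at 9.70 and 9.80. Its difference was -1.27 ± 0.16 (adjusted p = 2.57e-06). The IkappaB genes Nfkbia and Nfkbib were each lower by a log2 difference of -1.25, the nuclear IkappaB gene Nfkbiz by -1.06, Bcl3, a nuclear IkappaB-like coactivator, by -0.73 and Nfkbie by -0.60.

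Of the 10 targets, 9 were called lower, and the largest differences of all members were here. Nos2, the inducible nitric oxide synthase, stood at 10.31 and 10.46 in untreated TM+ DCs of experiment 3 and at 7.99 and 9.65 in those of experiment 4, against 12.50 to 12.73 in untreated TM- DCs. After sTM the TM+ values were 9.51 and 9.65 in experiment 2, 12.41 and 12.48 in experiment 3 and 10.09 and 9.92 in experiment 4, and the TM- values ran from 11.79 to 12.99. The treated TM+ arrays of experiment 3 thus lay within the TM- range, and all the other TM+ arrays lay below every TM- array. The difference over all arrays was 5.26-fold (-2.40 ± 0.30, adjusted p = 2.11e-06). Gadd45b, a stress-induced gene that restrains JNK signalling, ran from 8.97 to 9.22 in untreated TM+ DCs and stood at 10.71, 10.57, 12.50 and 12.48 in untreated TM- DCs. After sTM it ran from 8.69 to 10.22 (median 10.01) against 11.15 to 12.37 (median 11.87), without overlap, and its difference was -2.32 ± 0.25 (adjusted p = 2.77e-07). Traf1, an inducible adaptor of TNF family receptors, differed by -2.24 ± 0.24, Cflar, an inhibitor of caspase activation, by -1.47, and Sod2, the mitochondrial superoxide dismutase, by -1.21. The other clusters of Cflar gave -1.24 and -1.15. The transcription factor gene Junb (-0.89), the ligase gene Birc3 (-0.78), the adhesion molecule gene Icam1 (-0.61) and the immediate early gene Ier3 (-0.44) were called lower too. Irf1, an interferon regulatory factor, was not called (-0.52 ± 0.22, adjusted p = 0.0632), and its other cluster gave -0.18.

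The sort was also tested within each treatment. In untreated cultures 23 of 33 members were called lower, against 7.93% of all genes, with a median of -0.89. In sTM-treated cultures 26 were called lower, against 12.4% of all genes, with a median of -0.60. The count in treated cultures fell to 14 without experiment 4, where 3.85% of all genes were called lower. Every TM+ array lay below every TM- array within each of the 5 sets of one experiment and treatment for 15 members, against 4.58% of all genes. Over all 20 sorted arrays at once this held for 9 members, Cflar, Gadd45b, Malt1, Nfkb2, Nfkbia, Tnfaip3, Tnfrsf1b, Traf1 and Traf6, against 0.973% of all genes.

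Other genes of the pathway were called in both directions except for the further targets. Over all genes 18.7% were called lower in TM+ DCs and 18.6% higher, and these counts are read against those shares. Of 21 measured receptors and proximal adaptors, 9 were called lower and 7 higher in TM+ DCs (median -0.19). The largest were the costimulatory receptor Cd40 (-1.82), the cytokine receptor Il18r1 (1.47) and Irak3, a brake on Toll-like receptor signalling (-1.33). Of 21 further kinases and ubiquitin enzymes, 5 were called lower and 3 higher (median 0.02), among them the kinase genes Tbk1 (lower, adjusted p = 7.13e-08) and Map3k1 (-0.78) and the ligase gene Peli2 (0.67). Among 18 further inhibitors and modulators, 6 were called lower and 4 higher (median -0.06), with the RNase gene Zc3h12a at -1.29, Sqstm1 at -0.77 and Trib3 at 0.60. Of the other targets 15 of 24 were called lower and 0 higher (median -0.38). Ptges, which makes prostaglandin E, fell by 3.08 on the log2 scale, the gelatinase gene Mmp9 by 1.84 and Stat5a by 1.48.

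Treatment with sTM changed no member by the test over all sorted DCs. Of the 33 members 0 were called, as were 0.0150% of all genes, and 5 members had an unadjusted p under 0.05, against 8.06% of all genes. The median was 0.20 over the members and 0.00 over all genes, and the highest estimate was that of Nos2 (0.77 ± 0.32, adjusted p = 0.516). Within TM+ DCs 31 of 33 estimates lay above 0, with a median of 0.33, 11 had an unadjusted p under 0.05, against 10.2% of all genes, and 0 were called (0.381% of all genes were called higher there and 0.471% lower). The lowest adjusted p was that of Nfkbia (0.71 ± 0.19, adjusted p = 0.092). Within TM- DCs the median was 0.03, with 0 members and 0% of all genes called and 1 member at an unadjusted p under 0.05, against 3.62% of all genes. The interaction, which asks whether the sort differed between treated and untreated cultures, was called for 0 members and 0.0100% of all genes, and 8 members and 6.15% of all genes had an unadjusted p under 0.05. These counts changed when experiment 4 was left out. Without it 10 members were called higher with sTM (1.53% of all genes were), namely Cflar, Gadd45b, Icam1, Nfkb2, Nfkbia, Sod2, Tnfaip3, Tnfrsf1b, Tnip1 and Traf1, and 6 members had an interaction called above 0 (0.632% of all genes did). The treated arrays were then those of experiments 2 and 3 and the untreated arrays those of experiment 3 alone. With arrays weighted by their quality 5 members were called higher with sTM (Birc2, Birc3, Map3k14, Nfkb2 and Nfkbie), where 4.25% of all genes were.

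Experiments differed in the effect of sTM. The test of the difference, the effect in experiment 3 minus that in experiment 4, was called above 0 for 18 of 33 members and below 0 for 0, where 5.46% of all genes were called above 0 and 3.70% below. The median was 0.48 for the members and 0.03 for all genes. Inhibitors and targets were called in 12 of 17 cases (median 0.74) and subunits and kinases in 3 of 9 (median 0.29). In experiment 3 alone, 16 members were called higher with sTM in TM+ DCs (5.50% of all genes) and 11 in TM- DCs (5.97% of all genes). By role these were 12 of 17 inhibitors and targets and 2 of 9 subunits and kinases in TM+ DCs, and 5 of 17 and 5 of 9 in TM- DCs. Icam1 in TM- DCs lay near the threshold (0.42, adjusted p = 0.043). With 1 array left out, Traf2 in TM- DCs ran from 0.31 to 0.77 and Map3k14 from 0.37 to 0.77. Both were lowest without array 2 of sTM-treated TM- DCs, which had the lowest mean correlation with the other arrays (0.940). Every member called in experiment 3 kept its sign in these fits. In experiment 4 alone, 2 members were called in TM+ DCs (5.82% of all genes), Nos2 higher and Traf1 lower, and 2 in TM- DCs (1.57% of all genes), Irf1 (-0.93) and Gadd45b (-0.62), both lower.

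**Figure D3:**
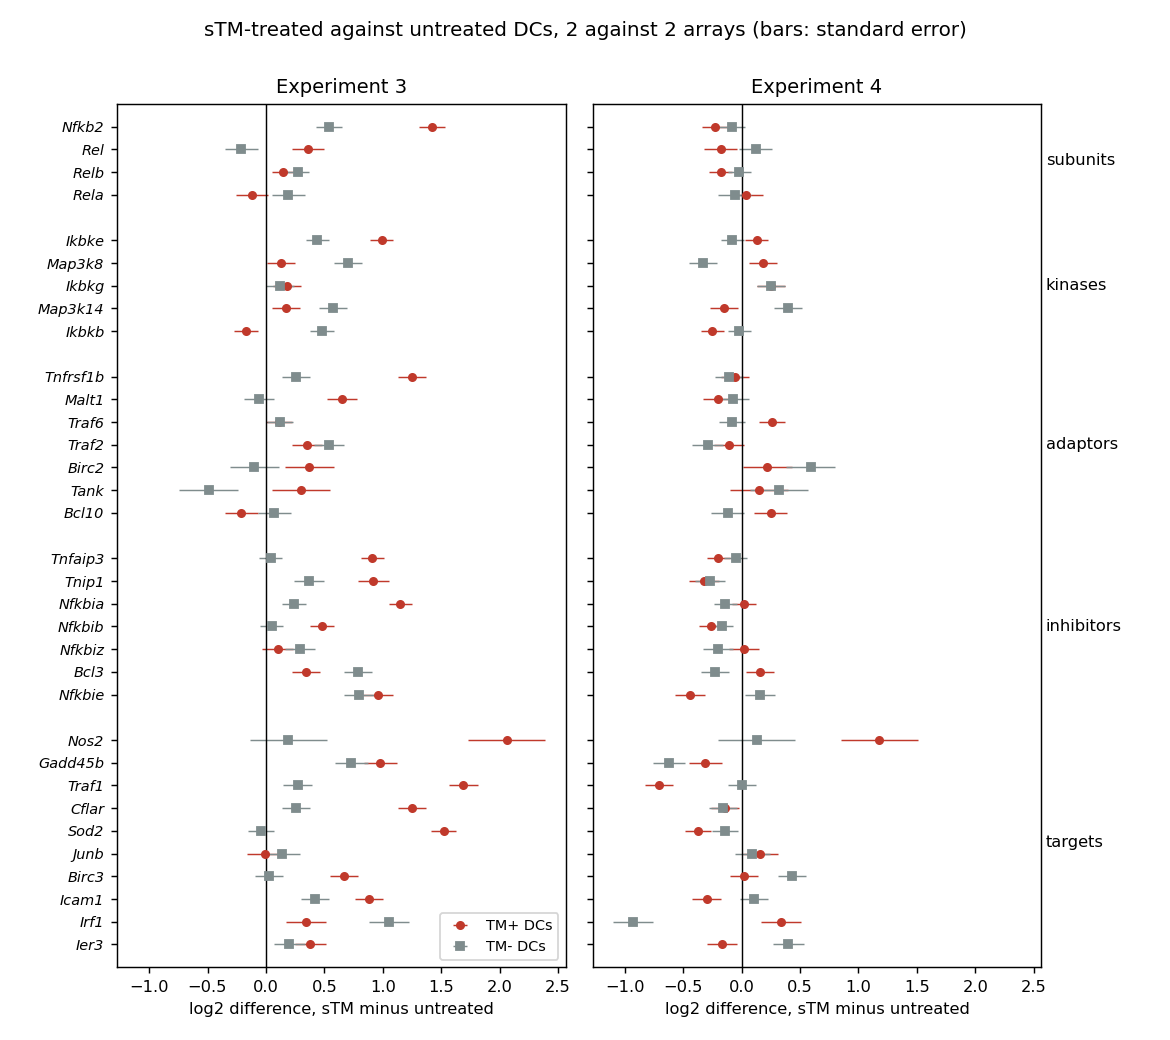
Difference between sTM-treated and untreated DCs (log2, horizontal axis) for each member in experiments 3 and 4, each from 2 against 2 arrays with standard errors from the fit, for TM+ DCs (red circles) and TM- DCs (grey squares). In experiment 3 the TM+ points reach 2.06 (Nos2) with a median of 0.38, and in experiment 4 their median is -0.11.

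Traf1 had the largest such difference (1.33 ± 0.12, adjusted p = 8.48e-07). In experiment 3 it went from 7.81 and 7.75 in untreated TM+ DCs to 9.43 and 9.49 after sTM, and in experiment 4 from 7.95 and 8.18 to 7.47 and 7.23. The direction in TM+ DCs was thus opposite in these experiments, with no overlap in either. Its TM- values moved less, from 10.17 and 10.08 to 10.43 and 10.35 in experiment 3 and from 10.77 and 10.84 to 10.77 and 10.83 in experiment 4. Gadd45b (1.32 ± 0.14) moved in both fractions. In TM+ DCs it went from 9.22 and 9.16 to 10.22 and 10.11 in experiment 3 and from 8.97 and 9.19 to 8.86 and 8.69 in experiment 4. In TM- DCs it went from 10.71 and 10.57 to 11.15 and 11.59 in experiment 3 and from 12.50 and 12.48 to 11.87 and 11.88 in experiment 4. Higher values after sTM in experiment 3 therefore stood against lower ones in experiment 4. Nfkb2 (1.13 ± 0.11) rose in TM+ DCs of experiment 3 from 8.87 and 9.08 to 10.36 and 10.43, and stood at 9.57 and 9.51 before and 9.39 and 9.23 after sTM in experiment 4. Nfkbie (1.02 ± 0.13) rose in TM+ DCs of experiment 3 from 8.63 and 8.62 to 9.62 and 9.56, and stood at 9.71 and 9.67 before and 9.34 and 9.16 after sTM in experiment 4. Nos2 was the 1 member called higher with sTM in TM+ DCs of both experiments, at 2.06 ± 0.33 in experiment 3 and 1.18 ± 0.33 (adjusted p = 0.0449) in experiment 4, and its difference between experiments was not called. The untreated TM+ arrays of experiment 4 stood far apart, at 7.99 and 9.65 against 10.09 and 9.92 after sTM. Without the array at 7.99 the value in experiment 4 was 0.35 (adjusted p = 0.476), and the call held in 3 of 16 fits with 1 array left out. In such fits the call of Traf1 in TM+ DCs of experiment 4 held in 16, and those of Irf1 and Gadd45b in TM- DCs in 12 and 10. Beside these values, 9 of 12 maturation markers were also called above 0 in this comparison (median 1.38), 5 of 13 neutrophil markers below 0, and Thbd below 0 (-0.68). Their part in the result was not tested. Among the other genes of the pathway, Cd40 (2.65) and Ptges (1.95) had the largest positive differences and Il18r1 (-2.02) the largest negative one.

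Experiment 2, in which sorted DCs were all sTM-treated, was compared with the treated DCs of experiments 3 and 4. The sorting effect was less negative in experiment 2 for most members. The difference of sorting effects, experiment 2 minus the mean of experiments 3 and 4, was called above 0 for 18 of 33 members, where 5.24% of all genes were, and below 0 for 1 member, Nos2, where 4.44% of all genes were. The median was 0.65 over the members and 0.05 over all genes. Inhibitors were called above 0 in 6 of 7 cases (median 1.09), targets in 6 of 10, subunits in 2 of 4, kinases in 2 of 5 and adaptors in 2 of 7. Within experiment 2 alone 12 members were called lower in TM+ DCs (7.88% of all genes) and 4 higher (10.8% of all genes), with a median of -0.25. In experiment 3 alone 22 were called lower (4.47% of all genes, median -0.60), and in experiment 4 alone 26 (9.15% of all genes, median -1.03). The median gap was widest in experiment 4, and the counts changed without it. Against experiment 3 alone, 9 members were called above 0 and 4 below (Gadd45b, Nos2, Tnfrsf1b and Traf6). For 3 of the 19 members the direction depended on which experiment served as the reference. The sorting effect of Nos2 was -2.24 in experiment 2, -0.26 in experiment 3 and -2.83 in experiment 4, that of Traf1 -1.44, -0.93 and -3.45, and that of Malt1 -0.70, -0.49 and -2.22, so that experiment 2 lay between the other experiments for all 3.

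**Figure D4:**
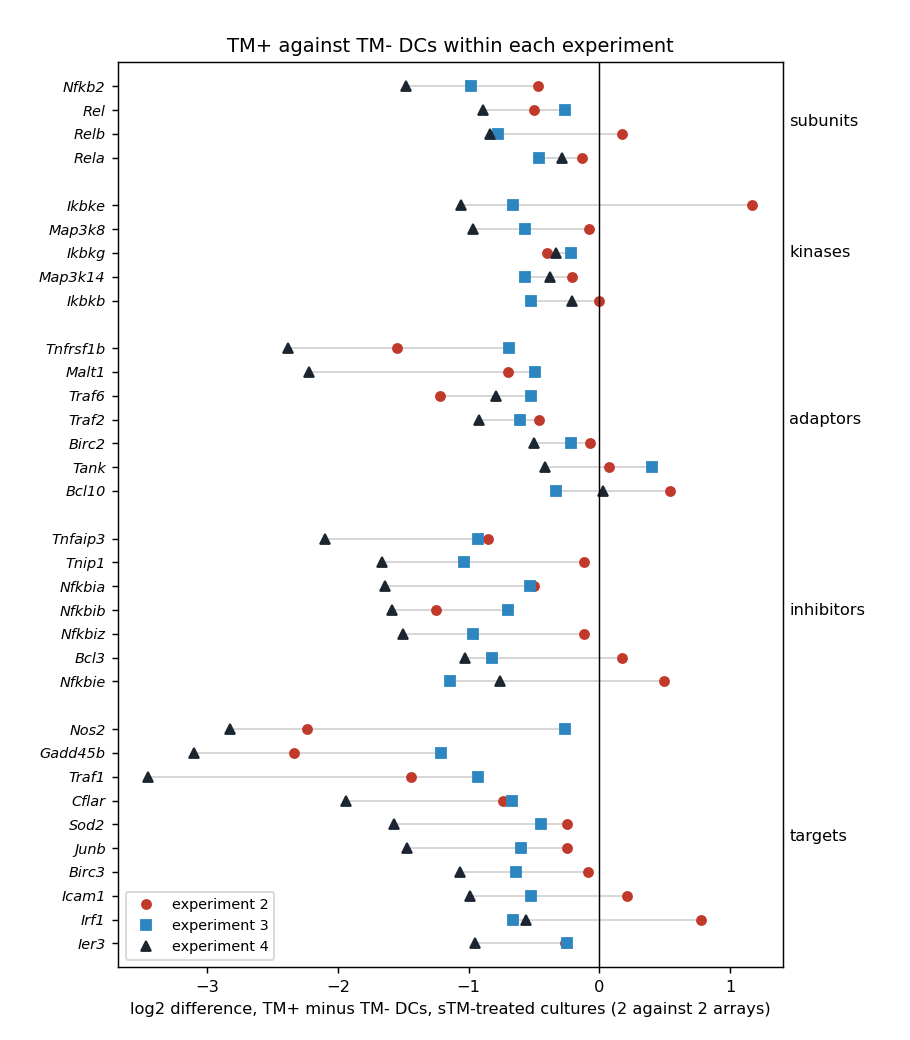
Difference between TM+ and TM- DCs of sTM-treated cultures (log2, horizontal axis) within experiments 2 (red circles), 3 (blue squares) and 4 (black triangles), 2 against 2 arrays each. Black triangles lie farthest left for most members. Red circles lie farthest right of 0 for Ikbke (1.17), Irf1 (0.78), Bcl10 (0.54) and Nfkbie (0.49). Those of Icam1 (0.21), Bcl3 (0.17), Relb (0.17) and Tank (0.07) also lie right of 0 and were not called.

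Ikbke changed most between experiments (2.03 ± 0.17, adjusted p = 5.22e-06). In experiment 2 it stood at 11.04 ± 0.06 (mean and SD of 2 arrays) in TM+ DCs and at 9.73 and 10.01 in TM- DCs. In experiment 3 the values were 11.02 and 11.09 in TM+ and 11.67 and 11.75 in TM- DCs, and in experiment 4 they were 10.03 and 9.98 against 11.08 and 11.05. The TM+ arrays of experiment 2 thus matched those of experiment 3, and its TM- arrays were the lowest of the 6. Nfkbie (1.44 ± 0.18) stood at 10.25 and 10.37 in TM+ and 9.81 and 9.82 in TM- DCs of experiment 2, where TM+ was higher. It stood at 9.62 and 9.56 against 10.53 and 10.92 in experiment 3 and at 9.34 and 9.16 against 10.04 and 9.98 in experiment 4, where TM+ was lower. Irf1 (1.39 ± 0.23) followed the same order, with 9.37 and 9.30 in TM+ and 8.50 and 8.61 in TM- DCs of experiment 2. It stood at 8.99 and 9.23 against 9.42 and 10.12 in experiment 3 and at 9.08 and 8.92 against 9.61 and 9.51 in experiment 4. Tnip1 (1.23 ± 0.19) stood at 9.70 and 9.80 against 9.77 and 9.97 in experiment 2, at 8.88 and 8.99 against 9.76 and 10.20 in experiment 3 and at 8.39 and 8.50 against 10.12 and 10.09 in experiment 4, so that its TM- arrays spanned a narrower range than its TM+ arrays. The gap stayed wide in experiment 2 for other members. Gadd45b was lower in TM+ DCs there by a log2 difference of -2.34, Nos2 by -2.24, Tnfrsf1b by -1.55, Traf1 by -1.44, Nfkbib by -1.25 and Traf6 by -1.22. Beside these values, 5 of 10 eosinophil, mast cell and basophil markers, 5 of 12 maturation markers and 5 of 13 neutrophil markers were called above 0 in the same comparison, and 4 of 10 cell division genes below 0. Their part in the result was not tested. Of the other targets 10 of 24 were called above 0 and 1 below, led by Mmp9 (2.03).

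Levels in experiment 2 were also compared with those in experiments 3 and 4, over both fractions and within each. Over both fractions of sTM-treated DCs, 8 members were called higher in experiment 2 than in experiments 3 and 4 (21.9% of all genes) and 13 lower (23.9% of all genes), with a median of -0.05. Members were thus called higher about as often as all genes. With arrays centred on the 75th percentile, which moved the median of all genes from 0.03 to 0.15, the counts were 11 and 11. In TM+ DCs 15 members were called higher in experiment 2 (15.0% of all genes) and 7 lower (17.7% of all genes), and in TM- DCs 2 were called higher (14.7% of all genes) and 18 lower (19.9% of all genes). Gadd45b and Traf2 were called higher in both fractions, and Bcl10, Ier3, Nfkbib, Nos2, Rel, Tank and Traf6 lower in both. The share of all genes called the same way in both fractions was not computed, so these calls are a description. Ikbke was called higher in TM+ (0.51) and lower in TM- DCs (-1.52), as were Nfkbie (0.89 and -0.55) and Icam1 (0.60 and -0.36). Nos2 (-1.30 ± 0.10) stood at 9.51 and 9.65 in TM+ and 11.79 and 11.86 in TM- DCs of experiment 2, below the other experiments in both fractions. Bcl10 (-1.26 ± 0.09) stood at 9.46, 9.17, 8.90 and 8.65 in experiment 2 and between 10.08 and 10.56 on the 8 treated arrays of experiments 3 and 4. Tank (-0.86 ± 0.17) stood at 9.86, 10.08, 9.84 and 9.96 in experiment 2 and between 10.72 and 11.23 elsewhere, apart from 1 array of sTM-treated TM- DCs in experiment 3 at 9.76. Nfkbib (-0.81 ± 0.08) stood at 10.01 and 10.24 in TM+ and 11.32 and 11.43 in TM- DCs, below the same fraction in experiments 3 and 4. In unsorted DCs Bcl10 showed the same step, with 8.54 to 9.16 on the 12 arrays of experiments 1 and 2 and 10.16 to 10.51 on the 4 arrays of experiment 3. In the comparison of levels over both fractions of sTM-treated DCs, other lists moved too. All 12 maturation markers (median -0.90) and all 10 cell division genes (median -1.42) were called lower in experiment 2. Of 21 receptors and proximal adaptors 15 were called lower and 5 higher, and of 13 neutrophil markers 6 lower and 3 higher. Their part in the result was not tested.

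No member was called for sTM in unsorted DCs. In the main fit, which blocked by experiment only, 0 of 33 members were called, as were 0% of all genes. There 8 members had an unadjusted p under 0.05, against 4.71% of all genes. With arrays of one number and experiment as the block instead, 0 members were called and the lowest adjusted p was 0.168. That fit gave 16 members an unadjusted p under 0.05, and the share of all genes is not given for it. Estimates of the main fit lay below 0 for 31 of 33 members, with a median of -0.27 against 0.01 over all genes. The median was -0.40 for inhibitors, -0.29 for subunits, -0.25 for targets, -0.16 for adaptors and -0.13 for kinases. The lowest estimates were those of Nos2 (-0.64), Tnfrsf1b (-0.59 ± 0.21, adjusted p = 0.936) and Traf1 (-0.54 ± 0.23, adjusted p = 0.999). Nfkb2 (-0.50 ± 0.16, adjusted p = 0.925) had a lowest, median and highest value of 9.96, 10.17 and 11.27 with sTM and of 10.50, 10.84 and 11.28 without.

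**Figure D5:**
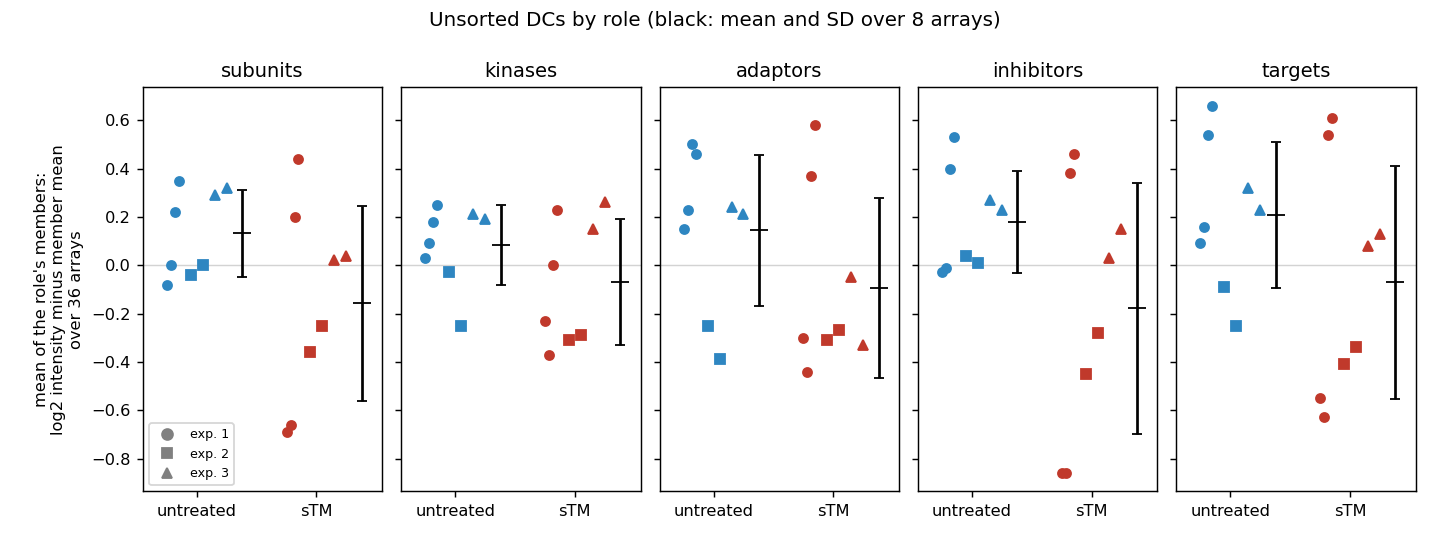
Mean over the members of each role of the log2 intensity minus the member's mean over 36 arrays (vertical axis) on the 8 untreated (blue) and 8 sTM-treated (red) arrays of unsorted DCs, with mean and SD in black. In experiment 1 (circles) the treated arrays split into a pair near -0.86 and a pair at 0.38 and 0.46 for the inhibitors, while the untreated arrays span -0.03 to 0.53.

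In experiment 1 arrays 1 and 2 stood apart from arrays 3 and 4 in both treatments, with a wider step after sTM for Tnfaip3 and Traf1. Tnfaip3 stood at 10.11 and 9.95 on sTM-treated arrays 1 and 2 of experiment 1 and at 11.80 and 11.98 on arrays 3 and 4, while the untreated arrays 1 to 4 stood at 11.13, 11.09, 11.94 and 11.81. Traf1 stood at 8.62 and 8.49 on treated arrays 1 and 2 and at 10.25 and 10.40 on arrays 3 and 4, against 9.65, 9.78, 10.36 and 10.50 on untreated arrays 1 to 4. Nos2 showed the same split, with 10.37 and 10.34 on treated arrays 1 and 2 and 12.53 and 12.57 on arrays 3 and 4. The split was not limited to these members, since over all genes treated and untreated arrays of one pair deviated together (0.56 to 0.75). The 4 treated arrays spanned a summed intensity of 18317 to 36695 for maturation markers and 2048 to 8611 for cell division genes. The untreated arrays of experiment 1 spanned 31752 to 36423 and 2083 to 5051. The part of these lists in the split was not tested. In experiment 2 Traf1 stood at 9.18 and 9.08 with sTM and 9.63 and 9.50 without, and in experiment 3 at 9.52 and 9.60 with sTM and 10.05 and 9.94 without. Traf1 was thus lower on the treated arrays of experiments 2 and 3, and on treated arrays 1 and 2 of experiment 1, than on any untreated array of the same experiment, and on treated arrays 3 and 4 it lay just below the untreated array of the same number. Without experiment 1 the count of called members was also 0.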

How the data were processed

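The authors deposited 1 table of intensity values on a linear scale, normalized and summarized per transcript cluster by robust multi-array average (RMA). Whether all arrays were normalized together, and detection calls, are not given in the sources used here. Values were converted to log2. Of the clusters, 21789 were annotated to 1 symbol, 1621 to several and 12146 to none, and only the first were used. The number of arrays limits precision.

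Fits used limma 3.58.1 in R 4.3.3 with empirical Bayes variances. The sorted fit held all 20 sorted arrays, with group means and experiment as a random block (correlation 0.396), and the unsorted fit its 16 arrays (0.375). Comparisons between experiments held experiment as a factor, over the 12 treated sorted arrays or the 16 sorted arrays of experiments 3 and 4. P-values were adjusted by Benjamini-Hochberg over 19938 genes at a threshold of 0.05. Estimates for a single experiment come from these same fits. The fits were tested on simulated data.

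The members and gene lists were chosen with earlier results of these data known. All members were accounted for. Values per array are given for the called members with the 2 largest sorting differences in each role and for up to 4 members with the largest called differences in each comparison between experiments, and up to 3 called genes are named in each further pathway list. Values of unsorted arrays were chosen after they were seen. Alternatives covered the experiment term, replicate blocks, scaling, dim genes below the 25th percentile, the mean of all clusters, variance trend, array weights and leaving out arrays or experiments.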

Additional observations from a re-analysis of the deposited data

Results flagged for a closer look

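Of 198 sets of values, 1 for each member and group, 2 held an array that stood apart by Dixon's test, where chance alone gives about 1 in 20. Nfkb2 was highest on array 1 of experiment 4 in untreated TM- DCs (10.90, with the other 3 arrays at 10.84), and Tnfrsf1b was lowest on array 2 of experiment 3 in sTM-treated TM- DCs (12.32, with the others from 12.67 to 12.82).

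The sorting effect differed between experiment 2 and experiments 3 and 4 by a tested difference for 19 members. For the subunits it was 0.76 (Nfkb2) and 0.98 (Relb), for the kinases 2.03 (Ikbke) and 0.69 (Map3k8), and for the adaptors 0.69 (Bcl10) and 0.65 (Malt1). For the inhibitors it was 1.09 (Bcl3), 0.58 (Nfkbia), 1.44 (Nfkbie), 1.11 (Nfkbiz), 0.66 (Tnfaip3) and 1.23 (Tnip1). For the targets it was 0.76 (Birc3), 0.97 (Icam1), 1.39 (Irf1), 0.79 (Junb), 0.76 (Sod2), 0.75 (Traf1) and, in the opposite direction, -0.70 (Nos2). For 3 of these the direction depended on the reference. Against experiment 3 alone Traf1 stood at -0.51 and Malt1 at -0.21, and against experiment 4 alone Nos2 stood at 0.59.

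The effect of sTM differed between experiments 3 and 4 for 18 members. It was 1.13 for Nfkb2, 0.69 for Ikbke, 0.49 for Map3k8, 0.43 for Malt1, 0.84 for Tnfrsf1b and 0.65 for Traf2. Malt1 lay near the threshold (adjusted p = 0.0443) and was not called with arrays centred on the 75th percentile. Its call, and that of Map3k8, was also lost in some fits that left out a single array. Among the inhibitors it was 0.60 for Bcl3, 0.76 for Nfkbia, 0.48 for Nfkbib, 1.02 for Nfkbie, 0.60 for Tnfaip3 and 0.93 for Tnip1. Among the targets it was 0.90 for Cflar, 1.32 for Gadd45b, 0.74 for Icam1, 0.99 for Irf1, 1.00 for Sod2 and 1.33 for Traf1.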

How the results depend on the processing

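The count of members called lower in TM+ DCs kept within 1.5 times of 28 under every alternative run, from 21 without experiment 4 to 31 with either other scaling. Without experiment 4, 4.94% of all genes were called lower. With 1 array left out it ran from 28 to 30, in untreated cultures from 22 to 26 (main 23) and in sTM-treated cultures from 20 to 26 (main 26). The count in sTM-treated cultures fell to 17 with no experiment term (5.19% of all genes) and to 14 without experiment 4 (3.85% of all genes). The count called higher with sTM in sorted DCs, 0, became 5 with array weights and 10 without experiment 4. For the interaction, the count called above 0 became 1 (Irf1) without experiment 3 and 6 without experiment 4, and the count called below 0 became 1 (Map3k14) with array weights. Leaving out 1 array kept all these sTM and interaction counts, and those of unsorted DCs, at 0.

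For the sorting effect of experiment 2 against experiments 3 and 4, the 18 members above 0 became 9 against experiment 3 alone and ran from 12 to 19 with 1 array left out. The 1 member below 0 became 2 with the replicate block, quantile normalization, dim genes left out, the mean of all clusters, or trend and robust variances, 4 against experiment 3 alone and 0 against experiment 4 alone, and ran from 0 to 2 with 1 array left out. Against experiment 3 alone Malt1 turned to -0.21 and Traf1 to -0.51, and against experiment 4 alone Nos2 turned to 0.59. For the level, the 8 members called higher became 13 with quantile normalization and 15 against experiment 4 alone. With 1 array left out the level counts ran from 8 to 10 higher and from 11 to 15 lower, and those of the sTM effect of experiment 3 against 4 from 16 to 21 above 0 and from 0 to 1 below. The cause of these changes was not tested. Centring on the 75th percentile changed the calls over all genes for the level from 4357 higher and 4768 lower to 6838 and 3662, for the sTM effect of experiment 3 against 4 from 1089 and 738 to 967 and 1066 (1277 and 1387 with quantile normalization), for the sort in untreated cultures from 2623 and 1582 to 1960 and 2911, and in sTM-treated cultures from 2311 and 2481 to 1998 and 4363.

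Same-numbered TM+ and TM- arrays deviated together with correlations from -0.25 to 0.31, so the numbers were not taken to pair arrays. Same-numbered sTM and untreated arrays of experiments 3 and 4 correlated at 0.40 and 0.35 in TM+ and at 0.09 and 0.09 in TM- DCs. In unsorted DCs they correlated at 0.56 to 0.75 in experiment 1, where arrays 1 and 2 also correlated across numbers (0.72 and 0.61), but at 0.03 in experiment 2 and 0.13 in experiment 3. With the replicate block 28 members were called lower in TM+ DCs and 24 in sTM-treated cultures, and with a replicate block by culture 27 and 23. In unsorted DCs the replicate block called 0 members and gave 16, rather than 8, an unadjusted p under 0.05. The share of all genes is not given for that fit, so the rise is not read as a result about the members. Values of single members were recomputed for all members in the sort and, in the other comparisons, only for members called there. Of these 3960 values, 208 lost a call, 20 gained one, 3 reversed and 2 uncalled ones changed sign.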
